A study of Homo sapiens with 6 samples.

Results

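The genes described here mark the epithelial and the mesenchymal state of a cell. They were 38 genes picked by symbol from a table of 58735 genes, 20 on the epithelial side (CDH1 to MUC1 in a fixed list) and 18 on the mesenchymal side (CDH2 to TAGLN). All 38 symbols were found, each at a single identifier. They were followed in A549, an established cell line from a human lung adenocarcinoma, that had received either a plasmid carrying ZBTB16 (3 libraries) or the empty vector pcDNA3.1 (3 libraries). ZBTB16 (PLZF) encodes a zinc finger protein known mainly as a transcriptional repressor. All 6 libraries were bulk RNA from the same line, which carries no other engineered change in the labels, and neither the culture each repeat came from nor the kind of transfection, stable or transient, is in the labels. All p-values thus rest on the spread among these 6 libraries, and that spread may be technical.

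Epithelial cells are held together by adherens junctions built on E-cadherin, by tight junctions built on claudins and occludin, and by desmosomes tied to keratin filaments. In the epithelial to mesenchymal transition, known from development, wound repair and carcinoma, cells are described as losing these contacts and gaining N-cadherin, vimentin and a fibronectin-rich matrix. Transcription factors of the SNAI, ZEB and TWIST families drive that switch, in part by binding E-box motifs at epithelial promoters, while GRHL2 and the splicing factors ESRP1 and ESRP2 uphold the epithelial state. A549 cells are widely used to study this switch because TGF-beta pushes them through it.

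The libraries held 15478010 to 17319971 reads on genes, recovered from the deposited FPKM (fragments per kilobase of gene, scaled to a size for each library). That size was close to the reads on genes but not equal to them. It was 1.54424e+07 for the 15478010 reads of ZBTB16 replicate 1 and 1.66889e+07 for the 16528472 reads of pcDNA3.1 replicate 2. ZBTB16 stood at 426, 488 and 456 FPKM in the ZBTB16 libraries and had 0 reads in each pcDNA3.1 library, which matches the group that each label names. The general epithelial and lung adenocarcinoma markers fixed for the check, 8 genes of which KRT7 was the highest, summed to 1764 to 1849 FPKM in ZBTB16 libraries and 1807 to 1953 FPKM in pcDNA3.1 libraries. The 5 of them at 1 FPKM or more, KRT7, KRT8, KRT18, KRT19 and EPCAM, are also members, so this sum restates member levels. The lung lineage markers of that list, NKX2-1, SFTPB and NAPSA, were near 0, at means over the 6 libraries of 0.012, 0.039 and 0.436 FPKM. Of 9 fibroblast markers 1 reached 1 FPKM, COL1A1 at 2.04, and the list summed to 2.74 to 3.05 FPKM in ZBTB16 libraries and 2.70 to 2.96 FPKM in pcDNA3.1 libraries, with DCN at 0.00078, PDGFRA at 0.047 and COL1A2 at 0. Endothelial markers (6 genes, PECAM1 highest) summed to 0.143 to 0.297 FPKM with ZBTB16 and 0.152 to 0.347 FPKM with pcDNA3.1. Immune markers (7 genes, CD14 highest) summed to 3.26 to 3.53 FPKM with ZBTB16 and 3.21 to 3.79 FPKM with pcDNA3.1, with CD3E and MS4A1 at 0. The extraction text in the labels names retinas while the other fields name A549, and of the retinal factors CRX was at 0 in all 6 libraries and NRL at 0.354 to 0.489 FPKM with ZBTB16 and 0.366 to 0.730 FPKM with pcDNA3.1. In bulk RNA a lower share of cells of a kind and less RNA per cell cannot be told apart. One library stood apart by gene length: in pcDNA3.1 replicate 1 the deviation of a gene from its group mean had a Spearman correlation of -0.31 with gene length over 12499 genes, against -0.10 to 0.23 in the other 5 libraries, and its part in the fold changes of long genes was not tested beyond leaving it out.

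Promoter sequence was available from RefSeq (GRCh38.p14) for 22 of the 38 genes, and the 250 bases before each start site were searched for the E-box CAGGTG on either strand (also read as CACCTG), which SNAI and ZEB factors bind. The motif was present in 4 of 10 epithelial windows (OCLN, TJP1, DSP and MUC1) and in 1 of 12 mesenchymal windows (ZEB1), against 17.5% of 35116 RefSeq windows of the same length. All 250 bases of the OCLN window and of the ZEB1 window lie within annotated exons. Exon bases were not removed for any of these counts. Each member had 1 window, while the RefSeq windows can include more than 1 of the same gene, so these shares are not fully alike. The COL4A1 and COL4A2 windows share 126 bases, and CDH1 is among the members without a window. A match is a description of letters and not evidence of binding. The stretches of TJP1, DSP and MUC1 that lie outside annotated exons are printed because they carry the motif in genes of a tight junction, a desmosome and the apical surface, with the motif in capitals, 5′ to 3′ on the gene's strand.
TJP1, chr15:29969050-29969299, minus strand: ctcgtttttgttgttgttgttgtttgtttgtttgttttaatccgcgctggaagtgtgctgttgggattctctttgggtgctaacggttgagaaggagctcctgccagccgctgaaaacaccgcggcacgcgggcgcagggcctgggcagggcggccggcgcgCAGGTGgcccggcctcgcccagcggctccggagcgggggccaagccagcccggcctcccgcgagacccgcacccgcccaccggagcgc
DSP, chr6:7541421-7541574, plus strand: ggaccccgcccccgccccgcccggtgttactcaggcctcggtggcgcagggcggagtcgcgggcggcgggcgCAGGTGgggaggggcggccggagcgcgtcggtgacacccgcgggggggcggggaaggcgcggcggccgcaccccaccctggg
MUC1, chr1:155192917-155193165, minus strand: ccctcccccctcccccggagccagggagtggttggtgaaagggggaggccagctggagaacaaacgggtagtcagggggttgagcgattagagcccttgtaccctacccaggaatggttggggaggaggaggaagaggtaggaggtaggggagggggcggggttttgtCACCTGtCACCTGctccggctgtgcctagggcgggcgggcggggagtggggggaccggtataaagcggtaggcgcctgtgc
The TJP1 motif begins 88 bases before the start site. In DSP the printed motif begins 178 bases before it, and a further copy at 85 bases lies within an annotated exon. MUC1 holds 2 copies that begin 82 and 75 bases before its start site, in tandem with a single base between them. None of these 3 transcripts passed the test between ZBTB16 and pcDNA3.1.

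Transcripts of genes of both sides were present in every library, which in bulk RNA does not show that the same cells held both. Of the 20 epithelial genes 15 had a mean of at least 1 FPKM over the 6 libraries, 9 at least 10 and 3 at least 100, and of the 18 mesenchymal genes 13, 5 and 3 did. The median epithelial member was at 5.00 ± 0.205 FPKM in ZBTB16 libraries and 5.41 ± 0.211 FPKM in pcDNA3.1 libraries, and the median mesenchymal member at 4.02 ± 0.141 FPKM with ZBTB16 and 3.74 ± 0.158 FPKM with pcDNA3.1 (SD, n = 3 each). Levels were uneven within each side, and the top 3 genes made up 89.1% of the summed epithelial FPKM and 88.1% of the mesenchymal.

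On the epithelial side the simple keratins led. KRT7, a type II keratin of glandular epithelia, ranked 31 of 19951 protein-coding genes by mean FPKM, and KRT8 and KRT18, which pair into the filaments of simple epithelia, ranked 40 and 45. Plakoglobin (JUP), a catenin of desmosomes and adherens junctions, came next at rank 477, then CLDN1 and KRT19 at 1261 and 1324, plakophilin 3 (PKP3) at 1708 and desmoplakin (DSP), which anchors keratins to the desmosome, at 2194. E-cadherin (CDH1) was far lower, at rank 5599, and EPCAM, an epithelial surface adhesion molecule, at rank 10379. At the bottom stood 5 genes under 0.2 FPKM, all of them epithelial: the tight junction claudin CLDN7, the membrane serine protease ST14 (matriptase), the splicing regulators ESRP1 and ESRP2, and GRHL2. No mesenchymal gene was that low.

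On the mesenchymal side the secreted matrix proteins TGFBI, named for its induction by TGF-beta, and fibronectin (FN1) ranked 119 and 185, and vimentin (VIM), the mesenchymal intermediate filament, ranked 287. N-cadherin (CDH2) at rank 5029 lay close to E-cadherin. The lowest mesenchymal gene was ZEB2 at a mean of 0.426 FPKM.

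**Figure D1:**
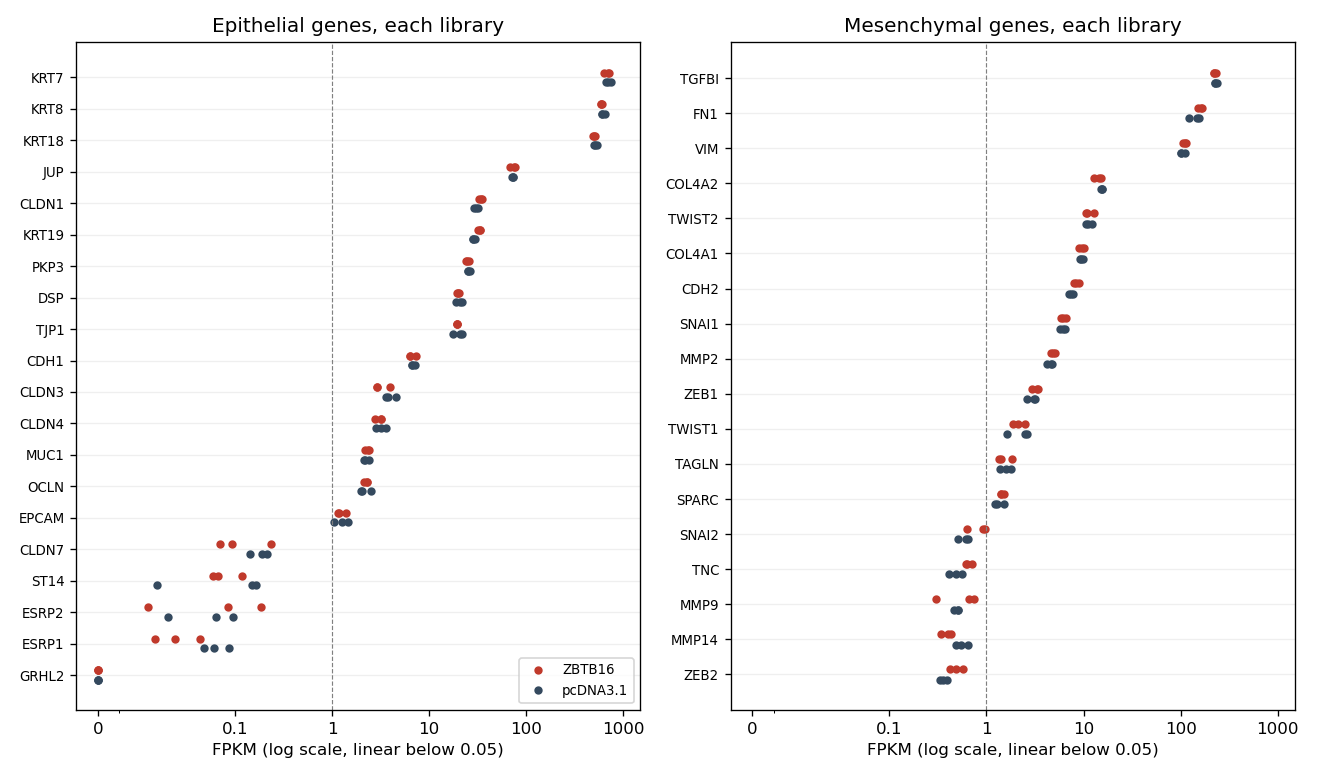
Each point is the FPKM of a gene in a library (x axis, log scale and linear below 0.05), with epithelial genes on the left, mesenchymal genes on the right, ZBTB16 libraries above pcDNA3.1 libraries in each row and a dashed line at 1 FPKM. KRT7, KRT8 and KRT18 and TGFBI, FN1 and VIM lie above 100 FPKM, while 5 epithelial genes lie below 0.2 FPKM on average.

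The comparison of ZBTB16 with pcDNA3.1 asks whether either programme shifts when the factor is supplied. None of the 38 genes passed in limma on log2 FPKM. Genes with a mean of at least 1 FPKM were tested on log2(FPKM + 1) with limma, which left 28 members, 15 epithelial and 13 mesenchymal, among 12499 genes, and a call needed a Benjamini-Hochberg adjusted p under 0.05 over all of them. Of the 28, 0 were called, where 0.072% of all genes were (0.064% higher and 0.008% lower). Limma voom on the recovered reads also called 0 of 28, where 1.65% of all genes were called (0.816% higher and 0.832% lower). Limma voom with no filter, a setting added after the data were seen, called KRT8 as lower and no other member, where 1.02% of 31102 genes were called (0.495% higher and 0.524% lower). At an unadjusted p under 0.05 there were 3 members, KRT19, CLDN1 and CDH2, all with positive fold changes, where 10.2% of all genes were (5.08% higher and 5.17% lower). The groups did not overlap in the same 3 members, where 16.2% of all genes had groups apart (8.12% higher and 8.1% lower). Positive and negative fold changes were 14 each among the members, and 48.5% of all genes were positive. Fold changes on the log2(FPKM + 1) scale, which understates the changes of low genes, spanned -0.23 to 0.19. The median was -0.046 over the 15 epithelial genes, 10 of them negative, 0.013 over the 13 mesenchymal genes, 9 of them positive, and -0.0031 over all tested genes. The epithelial median was -0.015 without pcDNA3.1 replicate 1 and -0.0068 without pcDNA3.1 replicate 2, and the mesenchymal median was -0.0024 without ZBTB16 replicate 1.

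**Figure D2:**
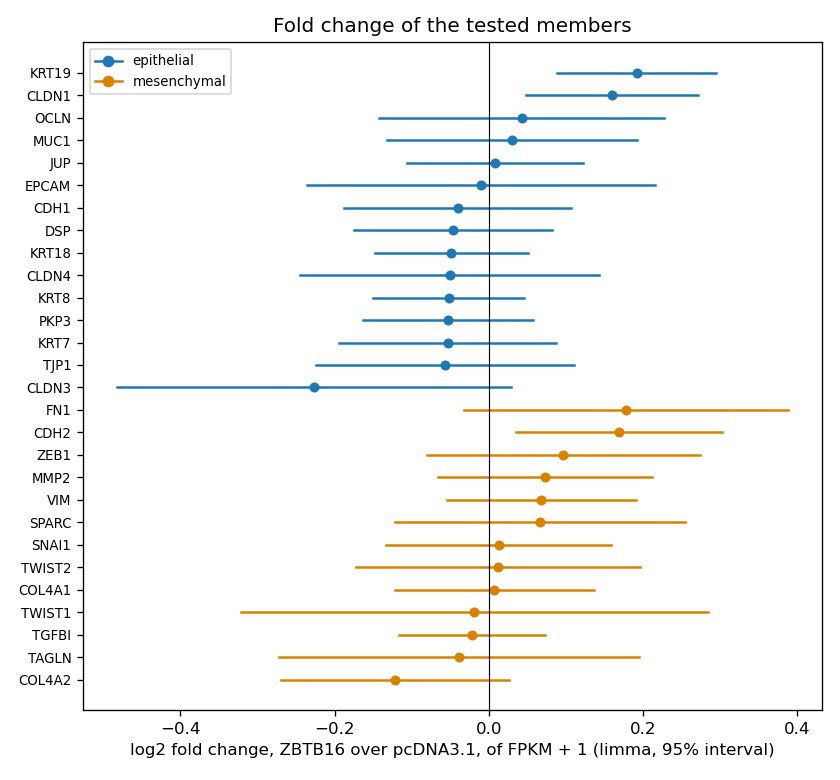
Points are log2 fold changes of FPKM + 1, ZBTB16 over pcDNA3.1 (x axis), for the 28 tested members, with 95% limma intervals as lines, epithelial genes above mesenchymal ones. The intervals of KRT19, CLDN1 and CDH2 lie above 0 and all others include it.

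The cadherins are the classical pair of the switch. E-cadherin (CDH1, ENSG00000039068, hg38 chromosome 16, 68737225 to 68835548, plus strand) stood at 6.34, 7.27 and 6.37 FPKM in ZBTB16 libraries and at 6.67, 7.21 and 6.74 FPKM in pcDNA3.1 libraries. The groups overlapped, and the log2 fold change was -0.040 (95% interval -0.19 to 0.11, limma adjusted p = 0.902). N-cadherin (CDH2, ENSG00000170558, chromosome 18, 27950966 to 28177446, minus strand) stood at 8.40, 9.03 and 8.06 FPKM in ZBTB16 libraries and at 7.80, 7.15 and 7.39 FPKM in pcDNA3.1 libraries. All 3 ZBTB16 values were above all 3 pcDNA3.1 values, with means that differed by 14.1% and a log2 fold change of 0.17 (SE 0.059, 95% interval 0.035 to 0.30), but the limma adjusted p was 0.344. Within each library the CDH1 to CDH2 ratio of FPKM, which does not depend on library scale, was 0.755, 0.806 and 0.790 with ZBTB16 and 0.855, 1.01 and 0.912 with pcDNA3.1. Every ZBTB16 ratio was below every pcDNA3.1 ratio, a log2 difference of -0.24 with an exact two-sided permutation p of 0.1, the smallest that 3 libraries against 3 allow. Of 6 such ratios computed, 4 were added after the values were seen, and over the 6 its adjusted p in this exact permutation test was 0.2.

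**Figure D3:**
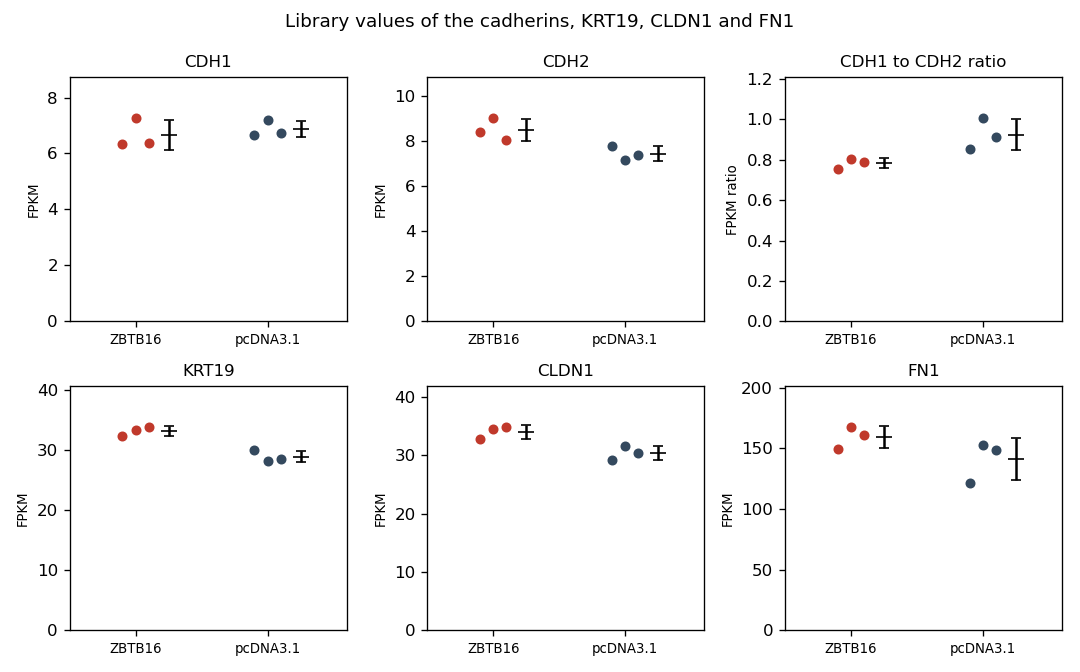
Points are single libraries, ZBTB16 left of pcDNA3.1, and bars are the mean with its SD, as FPKM or, in the upper right panel, as the within-library CDH1 to CDH2 ratio of FPKM. The groups are apart for CDH2, the ratio, KRT19 and CLDN1 and overlap for CDH1 and FN1.

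Among the other surface proteins, EPCAM stood at 1.18, 1.39 and 1.15 FPKM with ZBTB16 and 1.26, 1.48 and 1.05 FPKM with pcDNA3.1, from 44 to 62 reads a library. The groups overlapped (log2 fold change -0.010, limma adjusted p = 0.990), and at this number of reads the 95% interval reached from -0.24 to 0.22. The transmembrane mucin MUC1, carried on the apical side of glandular cells, averaged 2.31 ± 0.125 FPKM with ZBTB16 and 2.24 ± 0.157 FPKM with pcDNA3.1 (SD, n = 3 each). ST14 had 2 to 12 reads a library and was not tested.

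Of the 4 keratins, KRT19 had the smallest p among all members. This smallest of the acidic keratins, found in simple and ductal epithelia (chromosome 17, 41523617 to 41528308, minus strand), stood at 32.2, 33.3 and 33.8 FPKM in ZBTB16 libraries and at 29.9, 28.2 and 28.6 FPKM in pcDNA3.1 libraries. The groups did not overlap and the means differed by 14.7%, with a log2 fold change of 0.19 (SE 0.045, 95% interval 0.089 to 0.29) and a limma adjusted p of 0.175. The other 3 keratins had small negative fold changes. KRT8 stood at 589, 593 and 606 FPKM with ZBTB16 and at 641, 604 and 608 FPKM with pcDNA3.1 (log2 fold change -0.052, limma adjusted p = 0.780). This is the gene that limma voom with no filter called lower, at a log2 fold change of -0.058 and an adjusted p of 2e-05, while its ZBTB16 replicate 3 lay above pcDNA3.1 replicate 2. The SE of KRT8 was 0.010 in that fit and 0.040 in limma voom with the filter, where its log2 fold change was -0.059 and its adjusted p 0.653. The median log2 fold change over all genes in limma voom with the filter was -0.011. KRT18 averaged 498 ± 7.53 FPKM with ZBTB16 and 515 ± 18.3 FPKM with pcDNA3.1, and KRT7 681 ± 45.7 FPKM with ZBTB16 and 706 ± 37.0 FPKM with pcDNA3.1 (SD, n = 3 each). The KRT8 to KRT18 ratio was 1.197 ± 0.0290 with ZBTB16 and 1.199 ± 0.00429 with pcDNA3.1 (exact permutation p = 0.8, SD, n = 3 each). KRT8 and KRT18 lie next to each other on chromosome 12 on opposite strands, and exons of KRT8 cover 16.3% of those of KRT18. Of the 50-base words in their transcripts, 16.1% of KRT8 and 24.5% of KRT18 also occur in transcripts of other genes, pseudogenes among them, and the reads assigned to KRT8 pseudogenes came to 0.525% of those of KRT8.

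Tight junction genes had fold changes in both directions. CLDN1, a barrier-forming claudin (chromosome 3, 190305701 to 190322475, minus strand), stood at 32.7, 34.5 and 34.9 FPKM in ZBTB16 libraries and at 29.2, 31.6 and 30.3 FPKM in pcDNA3.1 libraries. Its groups did not overlap, and in limma the adjusted p was 0.270 for a log2 fold change of 0.16, with an SE of 0.049 and a 95% interval from 0.048 to 0.27. CLDN3, another barrier-forming claudin, stood at 2.90, 2.89 and 3.94 FPKM with ZBTB16 and at 3.75, 3.58 and 4.52 FPKM with pcDNA3.1, from 57 to 96 reads. The largest negative fold change of the 28 tested members was this one, at -0.23 (-0.34 without ZBTB16 replicate 3 and -0.15 without pcDNA3.1 replicate 3), but ZBTB16 replicate 3 lay above pcDNA3.1 replicates 1 and 2, and the limma adjusted p was 0.552. Its close neighbour on chromosome 7, CLDN4, averaged 3.06 ± 0.227 FPKM with ZBTB16 and 3.22 ± 0.410 FPKM with pcDNA3.1 (SD, n = 3 each), and 1.80% of the 50-base words of CLDN3 occur in CLDN4. Occludin (OCLN), a transmembrane tight junction protein, averaged 2.26 ± 0.0834 FPKM with ZBTB16 and 2.17 ± 0.283 FPKM with pcDNA3.1. The scaffold TJP1 (ZO-1), at 11265 bases one of the longer genes here, stood at 19.2, 19.5 and 19.4 FPKM with ZBTB16 and at 17.8, 22.0 and 21.1 FPKM with pcDNA3.1, where the low value was that of replicate 1. Without that library its log2 fold change was -0.14 in place of -0.057, with an adjusted p that did not pass in limma either (0.355). CLDN7 had 3 to 9 reads a library and was not tested.

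The desmosome genes overlapped between the groups. JUP averaged 73.3 ± 4.14 FPKM with ZBTB16 and 72.8 ± 0.834 FPKM with pcDNA3.1, PKP3 24.8 ± 0.998 FPKM with ZBTB16 and 25.7 ± 0.777 FPKM with pcDNA3.1, and DSP 19.9 ± 0.368 FPKM with ZBTB16 and 20.6 ± 1.40 FPKM with pcDNA3.1 (SD, n = 3 each). Their log2 fold changes of 0.0076, -0.053 and -0.046 had limma adjusted p from 0.811 to 0.983, and the widest of the 3 intervals, that of DSP, ran from -0.17 to 0.082. DSP was lowest in pcDNA3.1 replicate 1 among the pcDNA3.1 libraries, and its log2 fold change was -0.099 without that library and -0.0068 without pcDNA3.1 replicate 2.

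GRHL2, ESRP1 and ESRP2, the 3 epithelial regulators among the members, had few or no reads in either group. GRHL2, a grainyhead factor that activates CDH1 and claudin genes, had 0 reads in all 6 libraries, which allows up to 3 reads a group, or 0.0099 FPKM in each. ESRP1, which directs epithelial splicing, had 2, 3 and 4 reads in ZBTB16 libraries and 4, 5 and 7 reads in pcDNA3.1 libraries. Its FPKM of 0.0266, 0.0360 and 0.0473 with ZBTB16 lay below the 0.0490, 0.0615 and 0.0862 with pcDNA3.1, on reads too few for a difference to be detectable. ESRP2 had 2, 8 and 18 reads with ZBTB16 and 9, 6 and 3 reads with pcDNA3.1, and the groups overlapped.

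Of the 6 transcription factors known to drive the transition, TWIST2 was the highest and ZEB2 the lowest, and none of the 4 tested passed. The order of mean FPKM was TWIST2, SNAI1, ZEB1, TWIST1, SNAI2 and ZEB2. TWIST2, a basic helix-loop-helix factor, stood at 12.8, 10.9 and 10.6 FPKM with ZBTB16 and at 12.3, 10.5 and 11.1 FPKM with pcDNA3.1, and the groups overlapped (log2 fold change 0.012, limma adjusted p = 0.983). SNAI1, the zinc finger repressor Snail, stood at 6.53, 5.83 and 6.12 FPKM with ZBTB16 and at 6.45, 5.69 and 6.16 FPKM with pcDNA3.1 (0.013, limma adjusted p = 0.976). ZEB1, a zinc finger and homeodomain repressor of CDH1, stood at 3.29, 3.44 and 2.95 FPKM with ZBTB16 and at 2.63, 3.15 and 3.07 FPKM with pcDNA3.1. Its groups overlapped too, with the lowest value in pcDNA3.1 replicate 1 (log2 fold change 0.097, 95% interval -0.080 to 0.27, limma adjusted p = 0.766), and without that library the fold change was 0.038. TWIST1 stood at 2.10, 1.90 and 2.53 FPKM with ZBTB16 and at 2.47, 2.62 and 1.62 FPKM with pcDNA3.1, so that the groups overlapped (log2 fold change -0.019, limma adjusted p = 0.984).

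SNAI2 and ZEB2 were under the filter of 1 FPKM and had no test in the limma fit on log2 FPKM. SNAI2, the zinc finger repressor Slug, stood at 0.974, 0.931 and 0.629 FPKM with ZBTB16, from 37 to 54 reads, and at 0.652, 0.618 and 0.513 FPKM with pcDNA3.1, from 29 to 37 reads. A single ZBTB16 library, replicate 3, fell within the range of the pcDNA3.1 libraries. ZEB2, the other ZEB repressor, stood at 0.421, 0.567 and 0.486 FPKM with ZBTB16, from 163 to 243 reads, and at 0.332, 0.395 and 0.357 FPKM with pcDNA3.1, from 139 to 165 reads. Its groups did not overlap, and its means differed by 36.1%. ZEB2 is the longest member, at 25058 bases, and its lowest pcDNA3.1 value was that of replicate 1, without which the groups still did not overlap and the means differed by 30.8%. Limma voom with no filter gave ZEB2 an adjusted p of 0.121 at a log2 fold change of 0.44, and SNAI2 an adjusted p of 0.735 at 0.47.

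**Figure D4:**
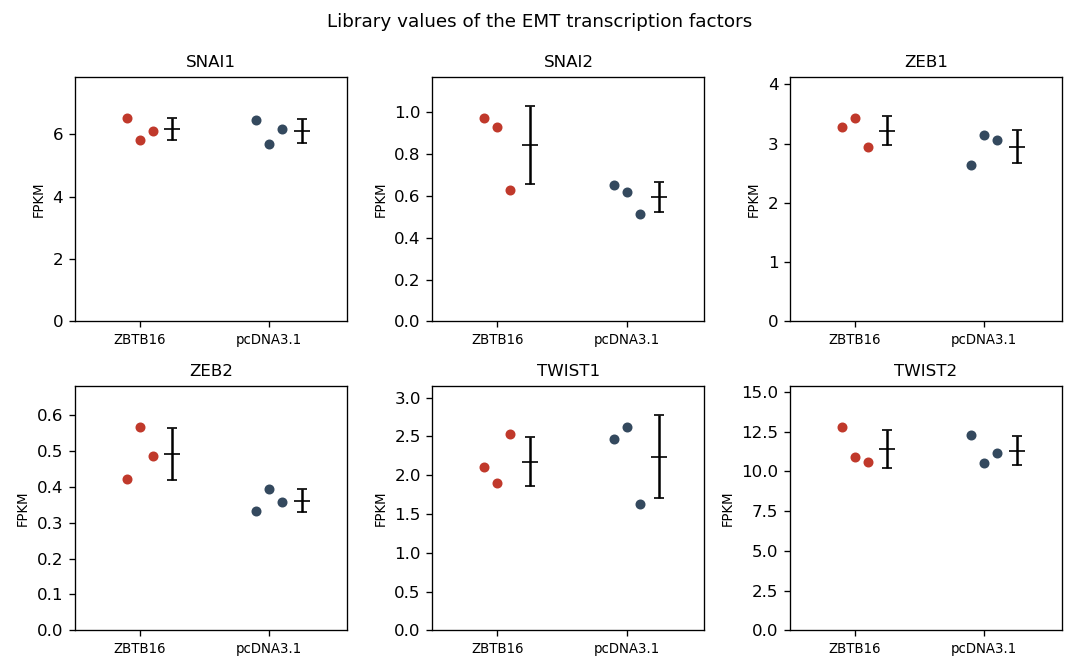
Points are the FPKM of single libraries, ZBTB16 left of pcDNA3.1, and bars are the mean with its SD, for SNAI1, SNAI2, ZEB1, ZEB2, TWIST1 and TWIST2. The groups are apart for ZEB2 and overlap for the other 5 factors.

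Vimentin (VIM) stood at 111, 114 and 105 FPKM in ZBTB16 libraries and at 112, 102 and 102 FPKM in pcDNA3.1 libraries. Its groups overlapped, with a log2 fold change of 0.068 (95% interval -0.054 to 0.19, limma adjusted p = 0.763). The CDH1 to VIM ratio was 0.0605 ± 0.00339 with ZBTB16 and 0.0656 ± 0.00548 with pcDNA3.1, and the exact two-sided permutation p was 0.3 (n = 3 each). TAGLN, an actin-binding protein of contractile cells, averaged 1.53 ± 0.262 FPKM with ZBTB16 and 1.59 ± 0.212 FPKM with pcDNA3.1, and exons of PCSK7 on the opposite strand cover 11.4% of it.

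Of the 6 matrix members 5 were tested, and on the log2(FPKM + 1) scale fibronectin had the largest fold change of those 5. FN1 stood at 149.6, 168 and 161 FPKM in ZBTB16 libraries and at 122, 153 and 149 FPKM in pcDNA3.1 libraries. The groups overlapped, and the low pcDNA3.1 value was again that of replicate 1, in a gene of 17315 bases. The log2 fold change was 0.18 (95% interval -0.032 to 0.39, limma adjusted p = 0.578) and was 0.074 without that library. TGFBI averaged 225 ± 3.70 FPKM with ZBTB16 and 229 ± 6.44 FPKM with pcDNA3.1, and SPARC, a collagen-binding glycoprotein, 1.46 ± 0.0632 FPKM with ZBTB16 and 1.35 ± 0.146 FPKM with pcDNA3.1 (SD, n = 3 each). Tenascin C (TNC), a matrix glycoprotein of wounds and tumour stroma, was under the filter at 0.625, 0.716 and 0.617 FPKM with ZBTB16 and 0.484, 0.417 and 0.567 FPKM with pcDNA3.1. Its groups did not overlap, and limma voom with no filter gave an adjusted p of 0.492.

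COL4A1 and COL4A2 encode the chains that assemble together into basement membrane collagen IV, and their RefSeq start sites lie 127 bases apart on opposite strands of chromosome 13. COL4A1 stood at 9.73, 9.03 and 10.0 FPKM with ZBTB16 and at 9.48, 9.97 and 9.18 FPKM with pcDNA3.1 (log2 fold change 0.0072, limma adjusted p = 0.987). COL4A2 stood at 14.4, 12.7 and 15.2 FPKM with ZBTB16 and at 15.2, 15.7 and 15.4 FPKM with pcDNA3.1 (-0.12, limma adjusted p = 0.593). With a library left out its log2 fold change ranged from -0.17 to -0.054, the latter without ZBTB16 replicate 2. Its adjusted p was 0.287 in limma voom and 0.0584 in limma voom with no filter, so it passed in neither. The COL4A1 to COL4A2 ratio was 0.676, 0.709 and 0.658 with ZBTB16 and 0.624, 0.637 and 0.595 with pcDNA3.1, so that every ZBTB16 ratio was above every pcDNA3.1 ratio. The exact permutation p of that ratio, one of those added after the values were seen, was 0.1, the smallest possible, and 0.2 adjusted over the 6 ratios. The 2 remaining ratios of the 6, KRT18 and KRT8 to VIM, had exact permutation p of 0.1 and 0.2. KRT18 to VIM was 4.53 ± 0.162 with ZBTB16 and 4.91 ± 0.0911 with pcDNA3.1, and KRT8 to VIM 5.42 ± 0.320 with ZBTB16 and 5.89 ± 0.119 with pcDNA3.1 (SD, n = 3 each).

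Of the 3 matrix metalloproteinases among the members, MMP2 was tested and MMP9 and MMP14 were under the filter. MMP2, gelatinase A, averaged 4.82 ± 0.196 FPKM with ZBTB16 and 4.54 ± 0.264 FPKM with pcDNA3.1 (SD, n = 3 each; log2 fold change 0.073, limma adjusted p = 0.781). MMP14, the membrane-bound protease that activates MMP2, was under the filter at 0.435, 0.341 and 0.401 FPKM with ZBTB16, from 26 to 31 reads, and at 0.549, 0.644 and 0.484 FPKM with pcDNA3.1, from 36 to 48 reads. Its groups did not overlap, in the direction opposite to ZEB2 and TNC, and limma voom with no filter gave an adjusted p of 0.704. MMP9, gelatinase B, had 11 to 30 reads with ZBTB16 and 18 to 20 reads with pcDNA3.1, and the groups overlapped. In all, the groups were apart in 4 of the 9 untested members with reads, 2 with higher and 2 with lower values in ZBTB16 libraries. GRHL2, with 0 reads, is left out of that count. The groups were apart in 11.6% of the 6606 genes under the filter that had reads in all 6 libraries (5.63% higher and 5.99% lower).

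Further genes of both programmes were taken from lists of their pathways, chosen with earlier results of these data known. Of these genes COL6A1 and CD44 had the smallest limma adjusted p. Of 58 other junction, polarity, keratin and epithelial regulator genes 36 were tested, and 0 passed in limma on log2 FPKM or in limma voom; at an unadjusted p under 0.05 the count was 1 higher and 2 lower, where 5.08% of all genes were higher and 5.17% lower. Their fold changes were positive in 14 and negative in 22, where 48.5% of all genes were positive. The groups lay apart in 3 as higher and in 3 as lower, where 8.12% and 8.1% of all genes did. The median log2 fold change of the 36 was -0.039. The smallest p of the polarity list belonged to CRB3, an apical polarity protein, at 2.68 ± 0.453 FPKM with ZBTB16 and 3.53 ± 0.360 FPKM with pcDNA3.1 (SD, n = 3 each; limma adjusted p = 0.311). That of the tight junction list was the adaptor CGN, at means of 1.254 FPKM with ZBTB16 and 1.57 FPKM with pcDNA3.1 (limma adjusted p = 0.547). Envoplakin (EVPL), which links desmosomes to the cell envelope, averaged 7.37 FPKM with ZBTB16 and 8.41 FPKM with pcDNA3.1 (limma adjusted p = 0.419). None of these 3 passed. The epithelial ETS factor EHF averaged 5.63 FPKM with ZBTB16 and 4.59 FPKM with pcDNA3.1 (limma adjusted p = 0.511). KRT6A, a stress-inducible keratin, stood at 1.88, 2.44 and 2.17 FPKM with ZBTB16 and at 1.41, 1.54 and 1.497 FPKM with pcDNA3.1, with the groups apart (limma adjusted p = 0.180). The hair keratin KRT81, named after its level was seen, stood above every member at 1448 ± 75.3 FPKM with ZBTB16 and 1509 ± 144 FPKM with pcDNA3.1 (SD, n = 3 each), and has a close paralog in KRT86, with which reads can be shared.

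Of 68 other mesenchymal, matrix, protease and TGF-beta pathway genes 50 were tested. In limma on log2 FPKM 0 passed, while at an unadjusted p under 0.05 the count was 10 higher and 1 lower, and the same share over all genes was 5.08% higher and 5.17% lower. The groups lay apart in 10 as higher and in 2 as lower, where 8.12% and 8.1% of all genes did. Fold changes were positive in 27 of the 50 and negative in 23. Limma voom called 3 of the 50, all higher, against 0.816% of all genes called higher. They were COL6A1 and COL6A2, chains of the microfibrillar collagen VI, and CD44, the hyaluronan receptor. COL6A1 stood at 15.2, 13.8 and 15.8 FPKM in ZBTB16 libraries and at 12.7, 11.7 and 11.6 FPKM in pcDNA3.1 libraries, with all ZBTB16 values above all pcDNA3.1 values. Its adjusted p was 0.137 in limma on log2 FPKM and 0.0095 in limma voom, with a log2 fold change of 0.29 in the first. COL6A2 stood at 12.9, 11.7 and 13.3 FPKM with ZBTB16 and at 11.6, 9.60 and 9.70 FPKM with pcDNA3.1, apart by a narrow margin (limma adjusted p = 0.250, limma voom adjusted p = 0.0302). CD44 stood at 79.0, 83.1 and 79.6 FPKM with ZBTB16 and at 69.0, 67.1 and 72.4 FPKM with pcDNA3.1, with the groups well apart (limma adjusted p = 0.153, limma voom adjusted p = 0.0154). Limma voom with no filter, added after the data were seen, called these 3 genes higher too, and with them COL5A2 and LOXL2. For COL5A2 and LOXL2 its adjusted p was 0.0011 and 0.0015, against 0.175 and 0.252 in limma on log2 FPKM. That setting called 0.495% of 31102 genes higher. The 12 tested matrix genes had a median log2 fold change of 0.16, with 10 positive, where 48.5% of all genes were. In 5 of the 12 the groups lay apart as higher, where 8.12% of all genes did. Their median was 0.11 without pcDNA3.1 replicate 1, the lowest pcDNA3.1 library for long matrix genes such as FBN1 and HSPG2, and 0.11 without ZBTB16 replicate 3, settings added after the data were seen. The matrix list was chosen with earlier results of these data known, so these shares describe it and do not test it. The 5 tested matrix members had a median log2 fold change of 0.0072, with 3 positive and 2 negative, and the groups lay apart in 0. The summed fibroblast markers lay at 2.74 to 3.05 FPKM with ZBTB16 and 2.70 to 2.96 FPKM with pcDNA3.1.

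In the TGF-beta pathway 16 of 18 genes were tested, 8 with positive and 8 with negative fold changes and a median of -0.00045. The ligand TGFB2 had the smallest p, at 7.66 ± 0.463 FPKM with ZBTB16 and 6.63 ± 0.221 FPKM with pcDNA3.1 (SD, n = 3 each; limma adjusted p = 0.292). The main ligand TGFB1 averaged 83.2 FPKM with ZBTB16 and 83.4 FPKM with pcDNA3.1, the receptor TGFBR2 54.3 FPKM with ZBTB16 and 51.9 FPKM with pcDNA3.1, and the signal carrier SMAD3 53.6 FPKM with ZBTB16 and 51.3 FPKM with pcDNA3.1. For these 3 genes the groups overlapped. Of the remaining lists, the contractile cytoskeleton had its smallest p in smooth muscle actin (ACTA2), at means of 1.28 FPKM with ZBTB16 and 1.05 FPKM with pcDNA3.1 (limma adjusted p = 0.668). The proteases and their inhibitors had theirs in MMP24, a membrane-bound metalloproteinase, at 8.65 FPKM with ZBTB16 and 9.97 FPKM with pcDNA3.1 (limma adjusted p = 0.277).

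**Figure D5:**
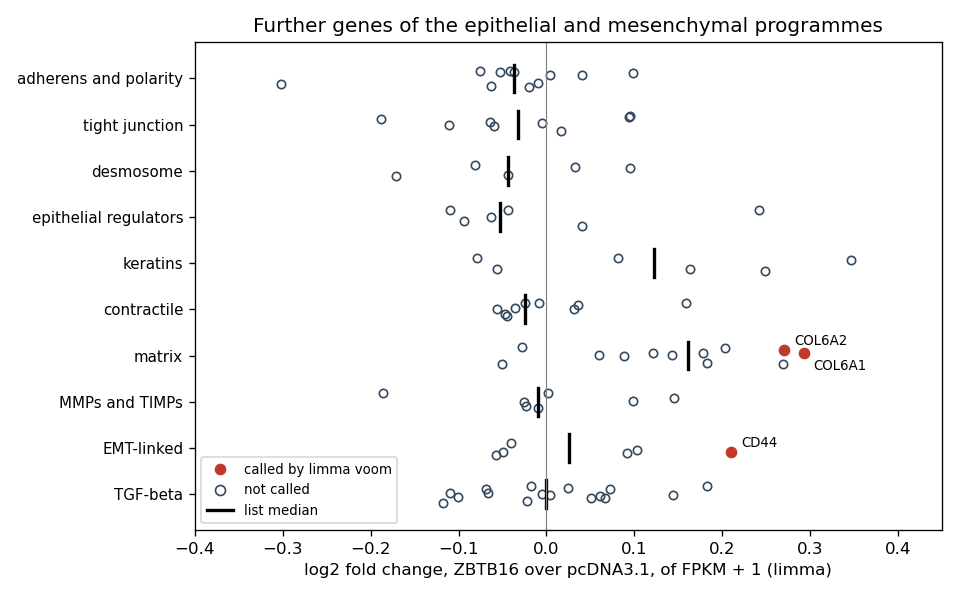
Circles are log2 fold changes of FPKM + 1, ZBTB16 over pcDNA3.1 (x axis), of the tested genes of 10 further lists, filled where limma voom called the gene, with list medians as black bars. COL6A1, COL6A2 and CD44 are the filled circles, and the matrix list has a median of 0.16.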

How the data were processed

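RNA from A549 cells transfected with a ZBTB16 plasmid or with pcDNA3.1, 3 libraries each, was measured by bulk sequencing per the labels with a TruSeq kit after Trizol extraction. Groups and replicate numbers came from the sample titles. The deposited values are FPKM per gene, made by the authors. HISAT2 2.0.5 and hg38 are named, per the submitters' processing notes; the counter, strand setting and filters are not stated there. All 58735 identifiers and gene lengths (merged exons) equal those of GENCODE 29. Multiplied by length, 100% of values were whole steps of 1 read within 0.01, which gave reads per gene, with 15478010 to 17319971 a library. Floors from reads cover counting error only.

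Genes averaging 1 FPKM or more entered limma 3.58.1 (R 4.3.3) as log2(FPKM + 1) (trended robust prior, no covariate), two-sided. The ± values are SD of FPKM. The step was tested on simulated data with fold changes larger than those of the tested members, so that test does not cover changes of their size. Alternatives were a pseudocount of 0.1, other filters, median-ratio scaling, a constant prior, limma voom, a replicate block, and each library left out in turn. The replicate numbers were not taken to pair the libraries, which the labels do not settle. The members, the further lists and the marker lists were chosen with earlier results of these data known. Values per library are given for the 8 tested members with the smallest p, for CDH1, EPCAM and the 6 transition factors, and from each further list the gene with the smallest p is named; the others, and per-library values of further members, were chosen after their values were seen. Exon overlaps and shared 50-base words were computed from GENCODE 29. Figures were drawn with matplotlib 3.10.9. The summed retinal marker list is not reported here.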

Additional observations from a re-analysis of the deposited data

How the results depend on the processing

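No tested member passed in the 9 alternative settings or with a library left out, apart from KRT8. The filter at 5 FPKM held 10 epithelial and 8 mesenchymal members. With no filter 19 epithelial and 18 mesenchymal members entered, and the remaining settings held all 28. In limma voom with no filter, added after the data were seen, KRT8 was called lower, which made 1 epithelial member called lower, at a log2 fold change of -0.058 and an adjusted p of 2e-05; the cause was not tested. The sign of the fold change was the same in every setting for 16 members and turned in at least 1 library-out fit for 12. The CDH1 to CDH2 ratio kept its sign, at log2 differences from -0.29 to -0.17 with a library left out, and CDH1 to VIM at -0.18 to -0.059. With a library left out the epithelial median log2 fold change ranged from -0.052 to -0.0068 (-0.015 without pcDNA3.1 replicate 1, -0.0068 without pcDNA3.1 replicate 2) and the mesenchymal one from -0.0024 to 0.061.

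The counts over all genes, 8 higher and 1 lower in limma, moved with the setting. They were 1 and 0 with no filter, 1 and 0 with a constant prior, 44 and 31 above an average of 5 FPKM, 56 and 33 among protein-coding genes, 102 and 104 with limma voom, and 154 and 163 with limma voom and no filter. With a pseudocount of 0.1, 2 were lower. With a library left out 1 to 4 were higher and 0 to 2 lower.

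As the check of pairing, deviations of same-numbered libraries correlated at -0.04 to 0.07, so the numbers were not taken to pair the libraries. With the replicate block 12 were higher and 3 lower over all genes and 0 members were called. For genes with few reads, such as EPCAM and CLDN3, the number of reads limits what can be detected.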
